A study of Mus musculus with 12 samples.

Results

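The comparison described here is the response of wild-type bone marrow cells isolated as long-term haematopoietic stem cells (LT-HSCs) to 5-fluorouracil (5-FU). Its members are the 6 wild-type libraries among the 12 libraries of the series, 3 from untreated mice and 3 from mice given 5-FU (labelled as a 10-day treatment), chosen by genotype and treatment label. The other 6 libraries carry the label Trim47-/- (3 untreated and 3 with the same 5-FU label) and served to estimate the spread and to test whether a response differed between the genotypes. All libraries were poly(A)-selected bulk RNA-seq of bone marrow cells, and the mice were not described further: their age, sex and number, the 5-FU dose and schedule, the isolation gate and the knockout strategy were not given in the sources used here. Whether the 3 libraries of a group came from separate animals was not stated either, so p-values cover the variation among these libraries alone, and that may be technical.

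LT-HSCs are rare, mostly quiescent cells of the bone marrow that renew themselves and give rise to all blood lineages. 5-FU is a pyrimidine analogue whose products block thymidylate synthase and enter RNA and DNA. It kills cycling blood progenitors, after which the surviving stem cells divide and rebuild the marrow before returning towards quiescence. The comparison addresses what the transcriptome of these cells looked like at the sampled time of that recovery, against the untreated state.

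Markers of the labelled cell type were checked first. Kit, the stem cell factor receptor of immature progenitors, was read at 463, 468 and 467 CPM (counts scaled to library size) in the untreated libraries and at 461, 455 and 462 CPM after 5-FU. Slamf1, which encodes CD150 and marks LT-HSCs, stood at 2.42, 1.59 and 1.66 CPM untreated and at 16.7, 16.3 and 16.01 CPM after 5-FU. Flt3, the cytokine receptor of multipotent progenitors that LT-HSCs are known to lack, was read at 715, 717 and 702 CPM untreated and at 549, 537 and 553 CPM after 5-FU. Slamf1 was higher and Flt3 lower after 5-FU without overlap of the groups, and Kit was not called. On the length-corrected scale, Slamf1 had a mean of 0.289 FPKM untreated and 2.68 FPKM after 5-FU, against 112 and 92.5 FPKM for Flt3, 68.6 and 77.99 FPKM for Cd34, and 11.4 and 12.01 FPKM for Procr (EPCR), another stem cell marker. Cd48, which LT-HSCs are known to lack, had 30.6 FPKM untreated and 61.1 FPKM after 5-FU. These levels go against a pure LT-HSC population in both groups, so the cells are called here by the label of their libraries and no cell type is inferred from it.

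Sequencing depth was even, with 14828152 to 14885673 counts per untreated library and 15111811 to 15151589 counts per 5-FU library. Between 22807 and 22910 genes had a count in the untreated libraries and between 22338 and 22466 after 5-FU. The scaling factors of edgeR's TMM method ran from 0.973 to 0.977 in the untreated libraries and were 1.05 in each 5-FU library. Mitochondrial rRNA took 0.167% to 0.170% of counts untreated and 0.214% to 0.216% after 5-FU. Libraries of a group resembled each other to near the counting limit: in genes with 1 annotated transcript the median chi-square per degree of freedom between the 3 libraries was 0.803 untreated and 0.843 after 5-FU, where counting noise alone gives 0.693. The use of 176 immunoglobulin variable segments correlated at 0.980 to 0.993 (Pearson's r across segments) in the 6 pairs of libraries within a group and at 0.615 to 0.653 in the 9 pairs between the groups, given as a description. Trim47, the gene named in the other genotype, was read at 24.6, 23.8 and 24.7 CPM untreated and 38.1, 33.3 and 34.7 CPM after 5-FU in wild type (log2 fold change 0.54 ± 0.11 SE, edgeR adjusted p = 0.00209). In the libraries labelled Trim47-/- it was read at 23.7, 18.9 and 16.6 CPM untreated and at 10.1, 12.2 and 11.6 CPM after 5-FU, so the first untreated one lay next to the lowest wild-type library, and every contrast with them is one with the libraries so labelled.

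The largest falls after 5-FU included Cd83, Acod1 and Nlrp3, which activated myeloid cells are known to express, and the largest rises included Lipg, Selp and the globin genes. Of 28999 genes in the table, 16319 passed the filter on low counts, and 8260 of these (50.6%) differed between the groups at a Benjamini-Hochberg adjusted p under 0.05 in edgeR's quasi-likelihood test. The split was nearly even, with 4110 genes higher (25.2%) and 4150 lower (25.4%) after 5-FU. These shares are the background for every list count below, and counts near them are not read as a result about the list. Large changes were mostly falls: 467 genes rose at least 2-fold (2.86%) and 1152 fell at least 2-fold (7.06%), and 86 rose and 404 fell at least 4-fold. Among the called genes, 4000 of the higher and 4063 of the lower ones had untreated and 5-FU values that did not overlap. Over all 16319 genes tested, called or not, 9607 had such values, so a lack of overlap is common here and does not set a gene apart. The median log2 fold change over all genes tested was 0.01. Since replicate spread was so small, a call by itself marks small shifts too: 2911 of the higher and 2275 of the lower genes changed by less than 1.5-fold. In bulk samples, a lower level from fewer cells of a type and from less RNA per cell cannot be told apart.

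**Figure D1:**
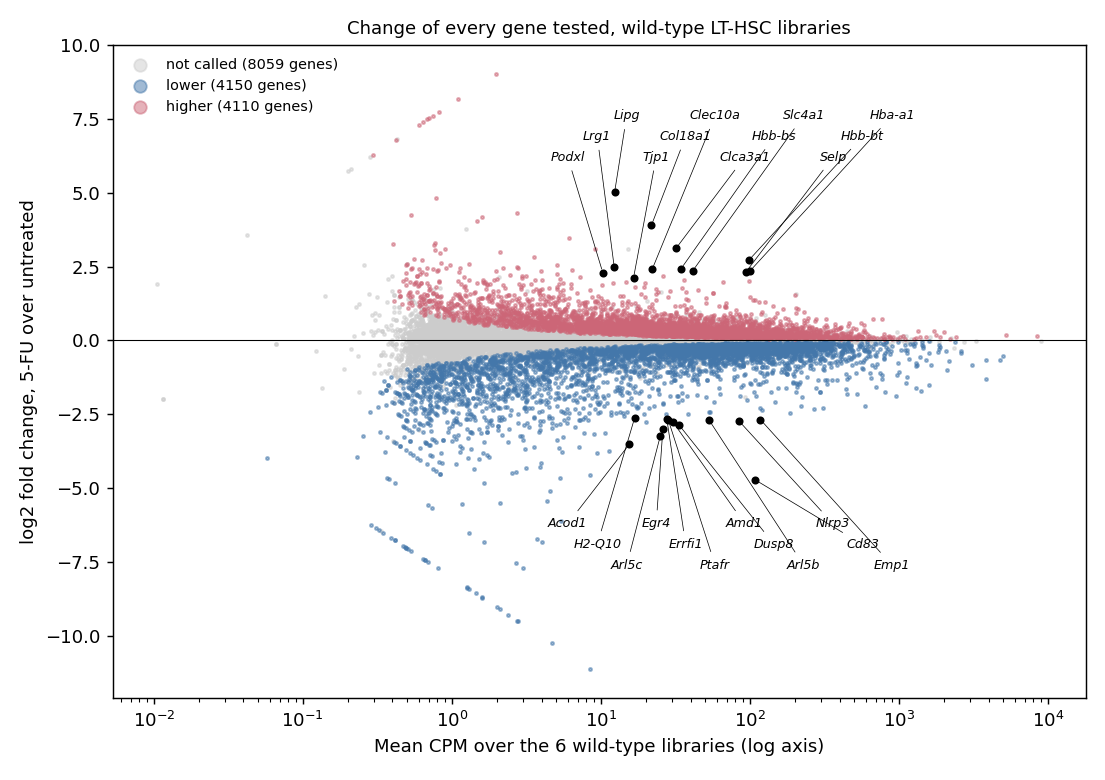
Each point is 1 of 16319 genes tested, with its mean CPM over the 6 wild-type libraries (log axis) against its log2 fold change, 5-FU over untreated; red and blue points were called higher (4110) and lower (4150), grey ones not called, and black points are the named genes of largest change. Changes below -2.5 are more frequent than changes above 2.5, and the diagonal streaks at low CPM are genes with no count in 1 of the groups, whose fold change is set by the prior count.

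By the rule for named genes (called, at least 10 CPM on average, libraries of the groups not overlapping), the largest rise belonged to Lipg (ENSMUSG00000053846), which encodes endothelial lipase, an enzyme that cleaves phospholipids of lipoproteins. Its level was 0.761, 0.762 and 0.691 CPM untreated and 23.2, 25.4 and 23.3 CPM after 5-FU, a log2 fold change of 5.01 ± 0.17 (SE, edgeR adjusted p = 7.98e-10). Col18a1, a basement membrane collagen, stood at 2.35, 2.49 and 3.39 CPM and then at 39.5, 43.01 and 40.4 CPM (3.90 ± 0.10). The rule itself required every 5-FU library to lie above every untreated one. For both genes the untreated level was close to the low end of what these libraries measure. Selp (ENSMUSG00000026580, GRCm38 chromosome 1, 164115264 to 164150026), the adhesion receptor P-selectin stored in platelets and endothelium, rose from 31.3, 32.6 and 30.6 CPM to 158, 155 and 157 CPM (2.31 ± 0.04). Podxl, a sialomucin found on HSCs and vessels, and Tjp1, the tight junction protein ZO-1, had log2 fold changes of 2.30 and 2.12. The list of the 12 largest rises was completed by Clca3a1 (3.11), Lrg1 (2.47), Clec10a (2.41) and the erythroid genes Hbb-bt, Hbb-bs, Hba-a1 and Slc4a1 described further on.

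Among the falls, Cd83 (ENSMUSG00000015396, GRCm38 chromosome 13, 43784775 to 43803132), a surface protein of activated antigen-presenting cells, led with 212, 209 and 208 CPM untreated and 8.08, 7.91 and 7.91 CPM after 5-FU. This was a 26.3-fold lower level (log2 fold change -4.72 ± 0.04, edgeR adjusted p = 8.58e-15). Acod1, which makes the immunometabolite itaconate in activated macrophages, fell from 28.6 ± 1.19 to 2.51 ± 0.442 CPM (SD, n = 3 each). Nlrp3, the sensor of an inflammasome, fell from 147 ± 5.07 to 22.2 ± 2.14 CPM, and Ptafr, the receptor of platelet-activating factor, had a log2 fold change of -2.69. Egr4 (-2.98) is an early growth response factor, Dusp8 (-2.85) a phosphatase of stress kinases and Errfi1 (-2.67) an inducible inhibitor of EGF receptor signalling. Arl5c (-3.22), Emp1 (-2.68) and H2-Q10 (-2.63) completed the falls whose calls held without any 1 library. For Amd1 (-2.77 ± 0.89) and Arl5b (-2.68 ± 0.82) the SE was wide and the call was lost in some refits: without any 1 library except the second untreated one for Amd1 (-2.72, adjusted p = 0.0639 without the first 5-FU library), and without the second 5-FU, the third 5-FU or the second untreated library for Arl5b, which then had -1.67 without the last (adjusted p = 0.100).

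Genes that NF-kB is known to induce were lower after 5-FU almost throughout. NF-kB is a family of dimeric transcription factors that inhibitor proteins hold in the cytoplasm until Toll-like receptor, TNF or IL-1 signals degrade the inhibitor. Its targets include cytokines, adhesion proteins, survival factors and its own inhibitors. Of the 42 genes listed, 41 were tested, 37 fell (27 of them at least 2-fold) and 2 rose, with a median log2 fold change of -1.26 against 0.01 over all genes tested. The summed level of the list was 11433 to 12823 CPM in the untreated libraries and 4552 to 5117 CPM after 5-FU.

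Some of these genes carry a kB motif next to their start, and 3 stretches are shown so that the sequence can be read beside the values. In RefSeq promoter windows of GRCm38.p6 (250 bases before to 50 after a gene's start), the letters GGGA and TTCC with 2 bases between them, on either strand, occurred in 1.75% of the 10589 tested genes with a window. They occurred in 6 of the 30 tested list members with a window (20%): Cxcl1, Cxcl10, Cxcl2, Il6, Nfkb2 and Nfkbia. Capitals mark the match.
Cxcl2, chr5:90903777-90903836, plus strand: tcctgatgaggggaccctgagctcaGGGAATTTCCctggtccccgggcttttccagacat
Nfkbia, chr12:55492648-55492701, minus strand: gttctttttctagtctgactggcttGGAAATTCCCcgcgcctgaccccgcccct
Nfkb2, chr19:46305445-46305493, plus strand: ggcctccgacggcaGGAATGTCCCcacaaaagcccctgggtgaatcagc
The matches begin 97, 29 and 236 bases before the start of Cxcl2, Nfkbia and Nfkb2. A match describes these letters only, and its part in the change was not tested. Of the 6 holders, 5 fell; Cxcl1, at 1.36 CPM untreated and 2.17 CPM after 5-FU, was called higher, a call lost in every refit without 1 library except that without the second 5-FU library (adjusted p up to 0.148).

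Among the cytokines of the list, the neutrophil attractant Cxcl2 was read at 449.8, 446 and 442 CPM untreated and 87.2, 94.8 and 88.3 CPM after 5-FU (log2 fold change -2.31 ± 0.03, edgeR adjusted p = 3.46e-13). The 3 untreated libraries were high, the 3 5-FU libraries low, and the groups did not overlap. Tnf fell from 284 ± 5.43 to 108 ± 3.93 CPM and the chemokine Ccl3 from 309.6 ± 16.6 to 105 ± 2.92 CPM. Of the interleukin genes, Il1b fell from 19.996 to 3.46 CPM, Il1a from 6.55 to 0.527 CPM and Il6 from 5.07 to 1.22 CPM. Ccl2, a monocyte attractant, went the other way (0.54).

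The inhibitors and most subunits of NF-kB fell too. Nfkbia, which encodes the inhibitor IkB-alpha, was read at 1600.0, 1580.1 and 1582 CPM and then at 686, 678 and 681 CPM (-1.22 ± 0.02). Tnfaip3, which encodes the feedback inhibitor A20, was read at 2775, 2729 and 1584 CPM and then at 936, 1050.2 and 538 CPM (-1.49 ± 0.37), with 1 library of each group well below the other 2 and still no overlap. The subunit genes Rel (-1.33), Relb (-1.47), Nfkb2 (-1.43) and Rela (-0.84) fell, while Nfkb1 moved by only -0.13. Surface proteins fell as well: Icam1, the adhesion ligand of leukocyte integrins, from 524, 509 and 514 to 107, 102 and 106 CPM, and the activation antigen Cd69 from 1514, 1498 and 1497 to 408, 408 and 402 CPM.

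**Figure D2:**
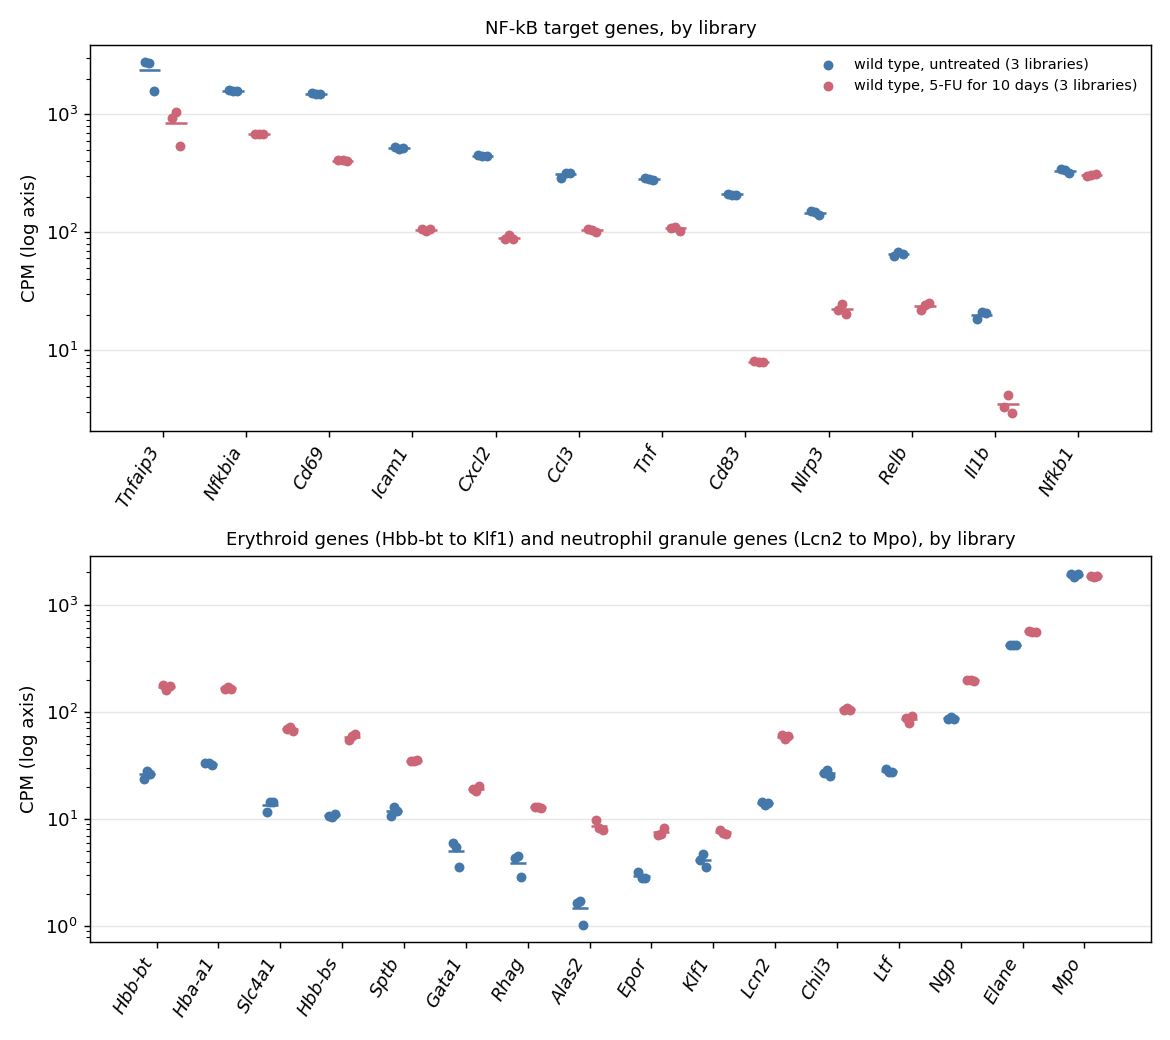
CPM (log axis) in each of the 6 wild-type libraries for genes of the NF-kB target list (upper panel) and for erythroid and neutrophil granule genes (lower panel); blue points are untreated and red points 5-FU libraries, and short bars are group means. In the upper panel, the blue points lie above the red ones for all 12 genes drawn, with Nfkb1 the closest pair, and in the lower panel the red points lie above the blue ones for all genes drawn except Mpo.

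Markers of dendritic cells and monocytes were lower more often than higher as well. On the list of dendritic cell and MHC class II genes, which includes Cd83, 15 of 18 tested members fell and 1 rose (median -1.35), with a summed level of 1912 to 2026 CPM untreated and 1169 to 1237 CPM after 5-FU. H2-Aa, an MHC class II chain, fell from 63.1, 64.996 and 68.1 to 12.6, 10.2 and 12.1 CPM, H2-Eb1 from 33.1 to 5.900 CPM and the invariant chain Cd74 from 201 to 39.6 CPM. The transcription factor Irf4 fell with them (-2.20), H2-DMa rose (0.32), and Itgax (CD11c) had 15.3 CPM untreated and 16.9 CPM after 5-FU without a call. On the monocyte and macrophage list, 12 of 24 tested members fell and 5 rose (median -0.26), the sum going from 2040 to 2117 CPM untreated to 1397 to 1442 CPM after 5-FU. Ly86 (-1.61), Mpeg1 (-1.49), Irf8 (-1.44) and Csf1r (-0.64) fell, while the lysozyme gene Lyz2 rose by 0.36 and Apoe, a lipid carrier of macrophages, from 46.1, 32.8 and 38.4 to 158, 147 and 167 CPM. No member of either list was at 0 in all 6 libraries, and the part of these cell types in the change of the NF-kB targets was not tested.

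Activated myeloid and inflammasome genes were lower more often than higher. Of 30 tested, 16 fell and 5 rose (median -0.56). Plaur, the urokinase receptor, fell by 0.97 on the log2 scale, Tlr2 by 1.14, Casp4, which senses cytosolic lipopolysaccharide, by 1.03, and the C-type lectin Clec7a by 1.12. The adaptor genes Pycard (0.32) and Myd88 (0.66) rose.

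Immediate early genes, whose transcription starts within minutes of a stimulus without new protein, made up a large share of all transcripts and were lower after 5-FU. The list held 56282 to 56861 CPM in the untreated libraries and 33719 to 33887 CPM after 5-FU. Of 38 tested members, 31 fell and 2 rose, with a median log2 fold change of -0.65. Nr4a1, an orphan nuclear receptor, was read at 5616, 5388 and 5413 CPM untreated and at 2216, 2165 and 2217 CPM after 5-FU (-1.31 ± 0.07). Egr1, a zinc finger factor linked to HSC quiescence and retention, was read at 2816, 2799 and 2769 CPM and then at 1398, 1395 and 1412 CPM (-1.00 ± 0.01). The untreated and 5-FU libraries did not overlap for either gene.

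AP-1 genes of the list fell too, with Fos at -0.65, Fosb at -0.65, Junb at -0.70 and Jun at -0.52. The stress-inducible Atf3 fell by 1.44, Nr4a3 by 2.07, Egr3 by 2.02, and the ERK phosphatase gene Dusp5 by 1.57 on the log2 scale. Zfp36, whose product speeds the decay of cytokine mRNAs, fell from 3948 ± 17.9 to 2246 ± 17.2 CPM. Socs3, a feedback inhibitor of JAK/STAT signalling, rose from 384 to 458 CPM (0.25); the other riser, Arc, lost its call without the second 5-FU, the third 5-FU, the first untreated or the third untreated library (adjusted p up to 0.128). In the RefSeq windows, the cyclic AMP response element TGACGTCA lay in 4 of 31 list members with a window (12.9%: Btg2, Dusp1, Maff and Ppp1r15a), against 3.48% of all tested genes with one, and the CArG box of serum response factor in 3 of 31 (9.68%), against 1.54%.

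Protein folding and stress genes shifted the same way. Of 26 unfolded protein response genes tested, 13 fell and 3 rose (median -0.15). Ddit3, which encodes the pro-apoptotic factor CHOP, was read at 202, 194 and 191 CPM untreated and 40.7, 40.4 and 38.7 CPM after 5-FU (-2.29 ± 0.05, edgeR adjusted p = 1.09e-11). Herpud1, a component of ER-associated degradation, fell by 1.60, Hspa5, the ER chaperone BiP, by 0.75, Xbp1 by 0.66 and the sensor Ern1 (IRE1-alpha) by 0.52 on the log2 scale. The sensors Atf6 (0.01) and Eif2ak3 (PERK, -0.04) were not called.

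On the integrated stress response list, 14 of 33 tested genes fell (42.4%) and 8 rose (24.2%), with a median of -0.10. Over all genes tested, 25.4% fell and 25.2% rose. Atf4 itself fell by 0.66, the arginine transporter Slc7a1 by 0.73 and Cebpb by 0.77, while asparagine synthetase Asns (0.49) and the lipoprotein receptor Vldlr (1.37) rose. The list of cytosolic heat shock chaperones, which also holds the mitochondrial chaperones Hspd1 and Hspe1, counted 13 falls and 3 rises among 27. The falls included Hspa1b at -1.12, Hspa1a at -1.04, Dnaja1 at -0.92 and Hspa4 at -0.67. The constitutive chaperone Hspa8 (-0.10) was not called.

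Interferon-stimulated genes were lower more often than higher. Type I interferon drives quiescent HSCs into cycle, and its target genes code for antiviral proteins. Of 60 tested, 33 fell and 7 rose, with a median of -0.23. Trim25, a ubiquitin ligase of the RIG-I pathway, fell from 274, 268 and 273 to 142, 139 and 140.3 CPM (-0.95 ± 0.03). Irf1 fell by 0.81, Isg15 by 0.93, Irf7 by 0.59 and Ifitm3 by 0.39 on the log2 scale. Of the same locus family as Ifitm3, Ifitm1 rose from 265 to 367 CPM (0.47).

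Erythroid genes were higher after 5-FU with a single exception. The list covers globins, haem synthesis, red cell membrane proteins and the factors that switch them on, and so marks the red cell branch. All 26 genes measured were tested, 25 rose (16 of them at least 2-fold) and 1, the transferrin receptor Tfrc, fell (-0.15). The median log2 fold change was 1.28, and the summed level went from 755 to 770 CPM untreated to 1326 to 1359 CPM after 5-FU. Globins led: Hbb-bt was read at 23.9, 27.9 and 26.5 CPM untreated and at 178, 161 and 173 CPM after 5-FU (2.71 ± 0.05), and Hba-a1 at 33.3, 33.5 and 31.999 CPM and then at 164, 172 and 163 CPM (2.33 ± 0.04). Globin paralogues are nearly identical in sequence, so the share of each copy is uncertain.

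Genes without such copies rose too. Slc4a1, the anion exchanger of the red cell membrane, was read at 11.5, 14.6 and 14.5 CPM and then at 68.7, 71.98 and 66.7 CPM (2.35 ± 0.08), and Alas2, the first enzyme of erythroid haem synthesis, at 1.66, 1.73 and 1.04 CPM and then at 9.79, 8.29 and 7.97 CPM (2.55 ± 0.21). Among the regulators, Gata1 rose from 5.95, 5.47 and 3.59 to 19.1, 18.5 and 20.2 CPM (1.94 ± 0.14), Epor, the erythropoietin receptor, by 1.35 and Klf1 by 0.86. No 5-FU library fell below an untreated one for these genes. The spectrin gene Sptb (1.56) and the ammonium channel component Rhag (1.72) rose, while carbonic anhydrase Car2 moved only from 249.5 to 286 CPM.

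Gata1 binds GATA motifs, and 3 windows of list members are shown with the motif in capitals. The letters AGATAA on either strand (TTATCT on the other) lay in 9 of the 19 tested erythroid genes with a RefSeq window (47.4%), against 8.26% of the 10589 tested genes with one. The holders were Alas2, Cpox, Epb42, Epor, Hbb-bs, Hemgn, Kel, Rhd and Trim10.
Alas2, chrX:150547306-150547361, plus strand: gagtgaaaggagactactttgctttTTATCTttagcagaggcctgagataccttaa
Hbb-bs, chr7:103828108-103828163, minus strand: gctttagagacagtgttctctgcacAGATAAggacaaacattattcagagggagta
Epb42, chr2:121037073-121037127, minus strand: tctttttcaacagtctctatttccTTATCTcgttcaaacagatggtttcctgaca
These matches begin 86, 210 and 226 bases before the start. The 3 genes rose by 2.55, 2.43 and 1.74 on the log2 scale, and whether a factor was bound there was not measured.

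Neutrophil granule genes, which mark the granulocyte branch, rose as well. Of 24 tested, 20 rose and 0 fell (median 0.69), the sum going from 4092 to 4236 CPM untreated to 5261 to 5360 CPM after 5-FU. Lcn2, an iron-siderophore binder, was read at 14.5, 13.7 and 14.2 CPM and then at 60.4, 55.6 and 59.9 CPM (2.05 ± 0.05), Chil3 rose by 1.97, Ltf (lactoferrin) by 1.62 and Ngp by 1.17. Of the genes of primary granules, which immature progenitors also express, Elane rose from 418 to 562 CPM (0.43) and Prtn3 by 0.37, while Mpo, at 1899 CPM untreated and 1831 CPM after 5-FU, was not called. Ly6g, the surface marker of mature neutrophils, was below the filter at 0.392 and 0.443 CPM.

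Megakaryocyte and platelet genes were mixed, with 14 of 25 tested higher and 5 lower (median 0.30). Besides Selp, the integrin gene Itga2b (CD41) rose from 71.9, 72.2 and 75.3 to 184, 180.1 and 176 CPM (1.30 ± 0.03), Vwf, a marker of platelet-biased HSCs, from 26.1, 24.5 and 24.7 to 53.9, 53.8 and 57.3 CPM (1.13 ± 0.04) and the receptor subunit Gp9 by 1.35. Thrombospondin Thbs1 fell from 90.96 ± 2.87 to 17.1 ± 0.933 CPM and the adaptor Plek by 0.48 on the log2 scale. The platelet tubulin Tubb1 stood at 0.738 CPM untreated and 0.632 CPM after 5-FU, without a call.

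B and plasma cell genes were mostly lower. On that list, 16 of 21 tested fell and 2 rose (median -1.13), with sums of 1403 to 1409 CPM untreated and 513 to 580 CPM after 5-FU. Igkc, the kappa light chain constant gene, was read at 665, 682 and 669 CPM and then at 214, 226 and 209 CPM (-1.64 ± 0.03), Jchain fell by 2.22 and Ighm by 0.67 on the log2 scale. Of the 2 risers, Cd79b lost its call in every refit without 1 library except that without the first 5-FU library (adjusted p up to 0.135) and Sdc1 kept it (0.50).

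On the T and NK list, 10 of 20 tested genes fell and 4 rose (median -0.64), although the summed level was 212 to 214 CPM untreated and 239 to 244 CPM after 5-FU. The T cell receptor genes Cd3d, Cd3e and Cd3g were below the filter. Gzmb, a cytotoxic granule protease, fell from 15.8 to 3.58 CPM, while Nkg7 rose by 0.70, Klrb1c (NK1.1) by 2.09 and Gata3 by 1.24. Lymphoid priming genes of multipotent progenitors counted 11 falls and 5 rises among 18 (median -0.36). Notch1 fell from 369 to 243 CPM (-0.60), Ly6d by 2.87 and Ccr9 by 2.02 on the log2 scale. Dntt, the template-independent DNA polymerase of early lymphoid cells, rose from 309, 319 and 311 to 433, 426 and 426 CPM (0.45 ± 0.02).

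Mast cell, basophil and eosinophil genes counted 9 falls and 5 rises among 17 tested (median -0.44); without the third untreated library the rises were 3. The basophil proteases Prss34 (-1.42) and Mcpt8 (-1.03) and the eosinophil granule gene Prg2 (-0.44) fell. Endothelial and stromal genes counted 6 rises and 4 falls among 16 tested (median 0.14), with 9 members below the filter and sums of 647 to 714 CPM untreated and 665 to 684 CPM after 5-FU. Beside the rises of Lipg, Col18a1, Podxl and Tjp1 given before, the vessel gene Plvap rose from 2.28 to 6.55 CPM and Pecam1 by 0.27, whereas the endothelial cadherin Cdh5, at 1.08 and 0.822 CPM, and Emcn, at 11.4 and 12.6 CPM, were not called. The niche chemokine Cxcl12 fell from 3.57 to 1.41 CPM. The part of vessel cells in the rises was not tested.

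**Figure D3:**
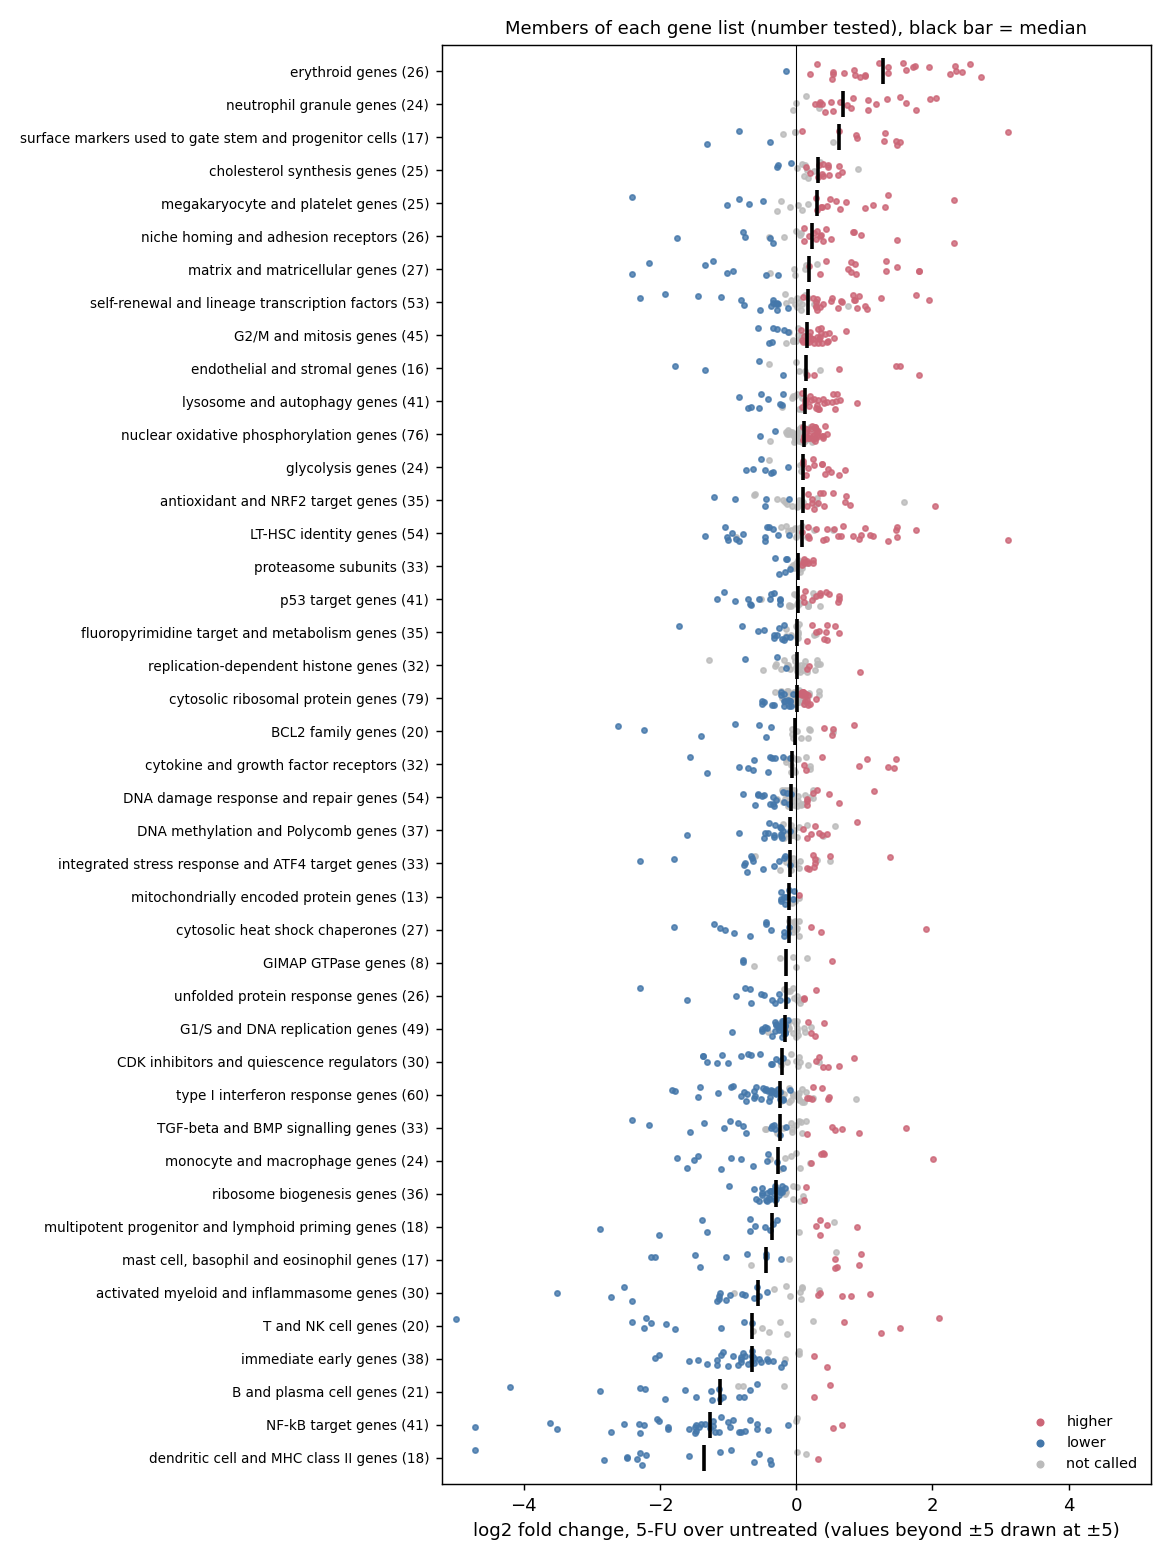
Each point is a tested member of 1 of 43 gene lists, placed by its log2 fold change, 5-FU over untreated, in the wild-type libraries; red members were called higher, blue lower and grey not called, black bars are list medians, and the number tested follows each name. The erythroid list has the highest median (1.28), the list of dendritic cell and MHC class II genes the lowest (-1.35), and values beyond ±5 are drawn at ±5.

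Genes of LT-HSC identity moved in both directions. Of 54 tested, 24 rose and 15 fell, with a median of 0.09. Slamf1 had the largest rise, 3.11 ± 0.12 on the log2 scale (edgeR adjusted p = 2.98e-09), and its 5-FU libraries did not overlap the untreated ones given above. Hoxb5, a gene used to report long-term repopulating cells, rose from 1.04 to 3.54 CPM, the angiopoietin receptor Tek (TIE2) from 11.3, 10.7 and 9.81 to 31.1, 29.8 and 26.5 CPM, and the adhesion protein Esam from 14.2, 16.1 and 14.7 to 39.9, 43.3 and 41.9 CPM. The transcription factors Gata2 (0.92), Mycn (0.66) and Tal1 (0.84) rose too.

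Other genes of the same list fell or were not called. Tgm2, a transglutaminase, fell from 153, 155 and 155 to 59.4, 60.8 and 63.3 CPM (-1.33 ± 0.03), Gimap6 from 372 to 217 CPM (-0.78), Mmrn1 by 1.02 and Prdm16, which maintains HSCs, by 0.46 on the log2 scale. Fgd5 (-0.16), Procr (-0.02), Hoxa9 (0.09) and Hlf (0.26) were not called. The list as a whole had 44.4% of its members called higher and 27.8% called lower, against 25.2% and 25.4% of all genes tested. Its summed level went the other way, with 7211 to 7418 CPM untreated and 5979 to 6264 CPM after 5-FU.

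The surface markers by which stem and progenitor fractions are gated counted 10 rises and 3 falls among 17 tested (median 0.63). Markers of both the stem cell and the progenitor side rose. On the stem cell side were Slamf1, Esam, Tek, Itga2b and Thy1 (6.85, 6.65 and 8.501 CPM untreated and 22.5, 20.2 and 20.4 CPM after 5-FU), and on the progenitor side Cd48, which LT-HSCs lack, with 58.4, 53.2 and 58.7 CPM and then 108, 104 and 105 CPM (0.89 ± 0.04), Cd244a (0.63) and the Fc receptor gene Fcgr3 (0.88). Flt3 fell by 0.38 and Il7r by 1.32 on the log2 scale. Ly6a (SCA-1) was read at 44.7, 38.9 and 61.2 CPM and then at 55.3, 64.8 and 90.7 CPM, groups that overlapped, and was not called. Kit, Procr and Itga2 were not called either, and the small rise of Cd34 (0.08) lost its call without the first 5-FU, the third 5-FU or the third untreated library (adjusted p up to 0.101).

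**Figure D4:**
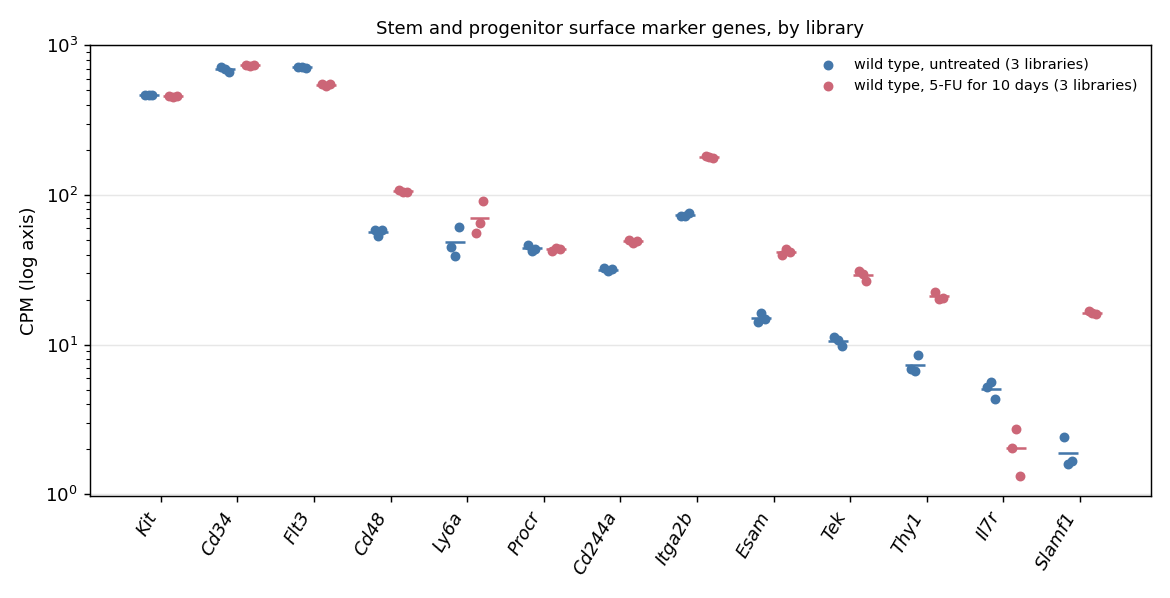
CPM (log axis) of 13 surface marker genes in each of the 3 untreated (blue) and 3 5-FU (red) wild-type libraries, with group means as short bars. Slamf1 shows the widest gap between the groups, while Procr and Ly6a overlap between the groups and the Kit points almost coincide without overlapping.

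Transcription factors of self-renewal and lineage choice counted 24 rises and 15 falls among 53 (median 0.17). Factors of the erythroid and megakaryocyte branch rose, with Gata1 (1.94), Zfpm1 (0.89) and Gfi1b (1.01), and so did Hoxb4 (1.04) and Erg (0.40). The monocyte and dendritic cell factor Irf8 fell from 125, 192 and 123 to 53.6, 55.5 and 53.01 CPM, Cebpa by 0.53 and Spi1 (PU.1) by 0.30 on the log2 scale, and B cell factors Pax5 (-2.29) and Ebf1 (-1.93) fell from levels under 3 CPM. The Kruppel-like factors Klf4 (-1.11), Klf2 (-0.82) and Klf6 (-0.34) fell. Runx1 (-0.15), Bmi1 (0.01) and Foxo3 (-0.07) were not called.

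Cytokine and growth factor receptors showed 8 rises (25%) and 12 falls (37.5%) among 32, with a median of -0.07. Over all genes tested, 25.2% rose and 25.4% fell. The beta chains shared by the IL-3, IL-5 and GM-CSF receptors rose, Csf2rb from 52.5 ± 0.998 to 108 ± 15.8 CPM and Csf2rb2 from 27.6 ± 0.295 to 74.3 ± 3.63 CPM, as did the activin receptor Acvr1b (0.92). Those 2 beta chain genes are close paralogues, so their reads may be shared. Receptors of TNF (Tnfrsf1b, -0.62), IL-6 (Il6ra, -0.42) and IL-1 (Il1r1, -0.36) fell, and the G-CSF receptor Csf3r (-0.01) was not called.

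Homing and adhesion receptors were higher in 16 and lower in 5 of 26 genes tested (median 0.23). Cxcr4, the CXCL12 receptor that holds HSCs in the marrow, was the largest fall, from 455, 454 and 464 to 136, 139 and 136 CPM (-1.74 ± 0.02, edgeR adjusted p = 1.67e-13). Cd44 fell by 0.78 and the prostaglandin receptor Ptger4 by 0.75 on the log2 scale. Integrins rose: Itga6 by 0.95, Itgb2 by 0.84, Itga4 by 0.28 and Itgb1 by 0.30.

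Replication genes were mostly lower and mitotic genes mostly higher, by small amounts. Cells pass from G1 into S phase with E2F-driven replication genes and from G2 into mitosis with cyclin B and kinetochore genes, and 5-FU at the time of exposure arrests cells in S phase. Of 49 G1/S and DNA replication genes, 28 fell and 4 rose (median -0.17). Of 45 G2/M and mitosis genes, 27 rose and 7 fell (median 0.16). At least 2-fold changes were 0 on either list.

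On the replication side, Pcna, the sliding clamp of DNA polymerases, was read at 287, 285 and 296 CPM and then at 211, 216 and 208 CPM (-0.45 ± 0.02). Orc1, the origin subunit loaded in G1, fell by 0.94, E2f1 by 0.50, the histone mRNA binder Slbp by 0.50 and the helicase gene Mcm5 by 0.21 on the log2 scale. Rrm2, the inducible subunit of ribonucleotide reductase, went from 88.9 ± 2.59 to 118 ± 1.38 CPM and so rose (0.40). On the mitotic side, Ccnb2 (cyclin B2) was read at 55.4, 59.8 and 57.99 CPM and then at 97.6, 96.1 and 94.6 CPM (0.74 ± 0.04). Plk1, a mitotic kinase, rose by 0.56, Hmmr by 0.46, Cdc20 by 0.37 and Ccna2 by 0.34. Mki67, which encodes the proliferation antigen Ki-67, fell from 708, 701 and 719 to 533, 541 and 543 CPM (-0.40 ± 0.02), and so did Cdk1 (-0.56 ± 0.09). Replication-dependent histone genes lack poly(A) tails and are poorly captured by this library type: 3 rose and 3 fell among 32 (median 0.01), and without the third 5-FU library 1 fell.

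**Figure D5:**
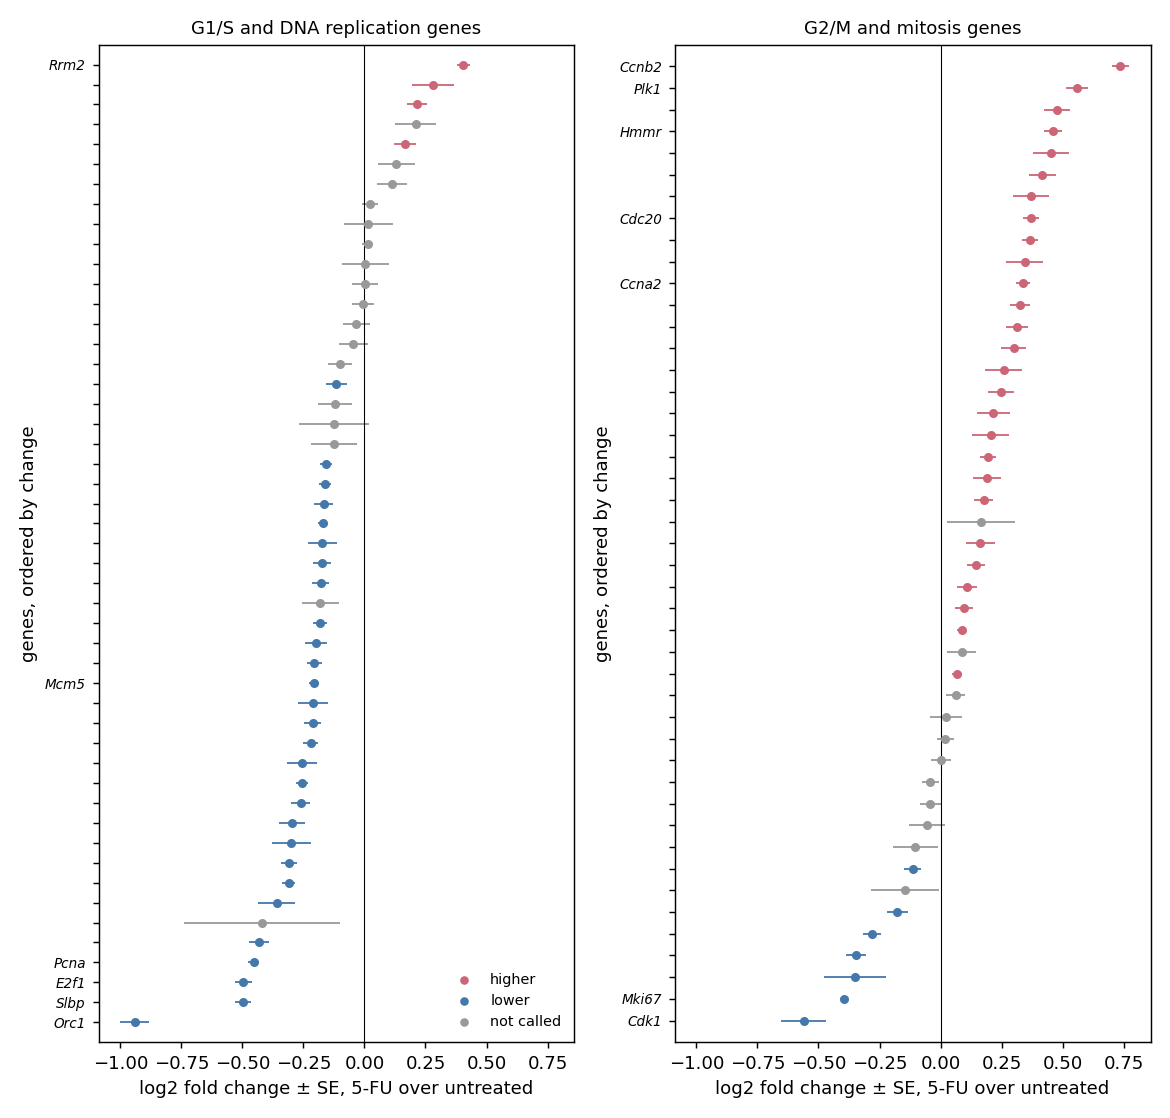
Log2 fold change with its SE (bars), 5-FU over untreated in wild type, of every tested member of the G1/S and DNA replication list (left, 49 genes) and of the G2/M and mitosis list (right, 45 genes); red was called higher, blue lower and grey not called. Most members lie between -0.5 and 0.5, with most replication genes at negative values (lowest, Orc1) and most mitotic genes at positive ones (highest, Ccnb2); genes named in the text are labelled.

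Genes on the list of CDK inhibitors and quiescence regulators were lower more often than higher. This list also holds the cell cycle drivers Cdk6, Ccnd1, Ccnd2 and Ccnd3, so its counts mix genes of opposite role. Of 30 tested, 15 fell and 6 rose (median -0.20), and several of the falls, such as Nr4a1, Nr4a2, Egr1 and Btg2, also stand on the immediate early list. Cdkn1c, which encodes p57, the CDK inhibitor most tied to HSC quiescence, rose from 7.05, 7.62 and 7.395 to 11.2, 11.3 and 11.5 CPM (0.62 ± 0.09). Cdkn1a, which encodes p21, was read at 432, 258 and 247 CPM and then at 192, 187 and 215 CPM, and its fall (-0.66 ± 0.23) lost its call without the first untreated library (-0.35, adjusted p = 0.158) and without the first or second 5-FU library. Cdkn1b (p27) was not called (-0.13), and Cdkn2c (p18) fell by 0.36 on the log2 scale.

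Outside the inhibitors, Hes1, a Notch target that restrains cycling, was read at 197, 197 and 164 CPM and then at 76.5, 73.9 and 66.4 CPM (-1.36 ± 0.09). Among D cyclins, Ccnd2 fell from 308, 294 and 296 to 144, 139 and 142 CPM (-1.08) and Ccnd1 rose by 0.40, while Ccnd3 (0.18) was not called. Cdk6, the kinase that sets how fast HSCs leave quiescence, stood at 1036 CPM and 1056 CPM and was not called. The retinoblastoma family members Rb1 (0.29) and Rbl2 (0.34) rose, as did the repressor Gfi1 (0.85).

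The p53 target list showed no common direction. p53 is stabilised by DNA damage and switches on genes of arrest, apoptosis and repair. Of 41 tested, 13 fell and 12 rose, with a median of 0.03, and 3 measured members were below the filter. Mdm2, the ligase that degrades p53, was read at 148, 141 and 144 CPM and then at 91.01, 90.9 and 88.1 CPM (-0.68 ± 0.03). The pro-apoptotic Pmaip1 (NOXA) fell by 0.90, Bbc3 (PUMA) by 0.37 and the death receptor Tnfrsf10b by 1.06 on the log2 scale. On the rising side, Ccng1 went from 59.1 ± 3.402 to 74.9 ± 0.676 CPM, Rrm2b, the p53-inducible ribonucleotide reductase subunit, from 10.8 ± 0.769 to 14.6 ± 0.837 CPM, and the nucleotide repair factor Xpc by 0.28. Bax (0.17), Gadd45a (-0.03) and Ppm1d (0.02) were not called.

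DNA damage response and repair genes counted 16 falls (29.6%) and 8 rises (14.8%) among 54, with a median of -0.08. Over all genes tested, 25.4% fell and 25.2% rose. The rises dropped to 4 without the second 5-FU, the first untreated or the third untreated library. The kinase genes Atm (-0.78) and Prkdc (-0.56) fell, as did Brca1 (-0.60), Fanca (-0.50) and Topbp1 (-0.34). Chek2 (0.48) rose. In the BCL2 family, 7 of 20 tested genes fell (35%) and 4 rose (20%), with a median of -0.02. These shares are not far from those over all genes tested, and no direction is drawn for the family. Among the falls were the survival genes Mcl1, from 1625, 1642 and 1650.1 to 1112, 1127 and 1134 CPM (-0.54), and Bcl2 (-0.44). The killer Bcl2l11 (BIM) fell from 157, 184 and 192 to 71.7, 59.3 and 70.98 CPM (-1.40 ± 0.14). Bak1 (0.40) and the mitophagy receptor Bnip3l (0.55) rose.

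Genes that handle 5-FU itself moved in both directions. 5-FU is turned into active nucleotides through uridine phosphorylase, uridine kinase and orotate phosphoribosyltransferase, inhibits thymidylate synthase, and is removed from DNA by uracil glycosylases. Of 35 tested genes, 13 fell (37.1%) and 10 rose (28.6%), with a median of 0.01. Over all genes tested, 25.4% fell and 25.2% rose. Among activating enzymes, Upp1 fell by 0.80, Uck2 from 389.8, 362 and 395 to 286, 259.6 and 279.9 CPM (-0.47 ± 0.04) and Umps by 0.28 on the log2 scale. The target Tyms was read at 42.8, 42.5 and 39.4 CPM and then at 37.8, 32.8 and 37.1 CPM, and its small fall (-0.21 ± 0.06) lost its call without the second 5-FU library (-0.15, adjusted p = 0.0675) and without the first or second untreated one. The glycosylases Ung (-0.56) and Tdg (-0.32) fell. Smug1, another uracil glycosylase of the list, was called higher, a call lost without untreated library 2 (0.42, edgeR adjusted p = 0.0586). Samhd1, which hydrolyses deoxynucleotides, rose from 109, 104 and 103 to 156, 159 and 155 CPM (0.57 ± 0.03), the export pump Abcc5 by 0.45 and deoxycytidine kinase Dck by 0.30. Tk1 (0.02) and Tymp (0.29) were not called.

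Nuclear genes of oxidative phosphorylation were higher more often than lower, by small amounts. Of 76, 29 rose and 2 fell (median 0.11), with the list sum at 5821 to 5855 CPM untreated and 6395 to 6478 CPM after 5-FU. Complex I genes Ndufv3 (0.37) and Ndufa9 (0.25) and the complex II gene Sdhd (0.25) were among the rises, and the ATP synthase subunit Atp5l fell (-0.53). The protein genes of mitochondrial DNA went the other way, 9 of 13 lower and 1 higher, by -0.23 for mt-Nd2 and -0.18 for mt-Nd1. The 1 higher gene, mt-Co2, lost its call without the first or the second library of either group (adjusted p up to 0.0993) and in the fit scaled by DESeq2 size factors.

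Ribosome biogenesis genes fell: 26 of 36 were lower and 2 higher (median -0.30), the higher ones numbering 1 without the first 5-FU, the first untreated or the third untreated library. Gnl3, the nucleolar protein nucleostemin, was read at 187, 192 and 189 CPM and then at 100.4, 91.7 and 93.1 CPM (-0.99 ± 0.04). Nop58 fell by 0.61, the RNA polymerase I subunit Polr1a by 0.54 and Heatr1 by 0.51 on the log2 scale, whereas Npm1 (0.05) was not called. Cytosolic ribosomal protein genes counted 16 higher and 17 lower of 79 (median 0.00), and 9 were higher without the first untreated library. Ribosomal protein genes are known to have many processed pseudogenes, so their single values are uncertain. All annotated pseudogenes together, of any gene family, took 8.20% to 8.29% of counts untreated and 8.91% to 8.93% after 5-FU.

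Glycolysis, cholesterol synthesis, lysosome and antioxidant genes held more rises than falls. Glycolysis genes had 13 rises and 7 falls among 24 (median 0.11), with hexokinase Hk1 (0.38) and Pdk1 (0.37) higher and the glucose transporters Slc2a1 (-0.52) and Slc2a3 (-0.37) lower. Cholesterol synthesis genes had 13 rises and 3 falls among 25 (median 0.32): Fdps (0.63) and Lss (0.61) rose. Lysosome and autophagy genes had 24 rises and 9 falls among 41 (median 0.13). There, membrane and pump genes such as Lamp2 (0.64) and Atp6v1a (0.45) rose, and the autophagy kinase Ulk1 (-0.66) and the cargo receptor Sqstm1 (-0.85) fell. Antioxidant genes had 14 rises and 5 falls among 35 (median 0.10). Nfe2l2, which encodes the regulator NRF2, fell from 162, 172 and 163 to 85.8, 93.3 and 86.4 CPM (-0.90), as did Txnrd1 (-0.44) and Srxn1 (-1.21), while Gpx3 (2.04) and Gclm (0.78) rose. Proteasome subunits had 8 rises and 6 falls among 33 (median 0.03), and 5 or 4 rises without the third 5-FU or the third untreated library, so that no direction is drawn for them.

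In TGF-beta and BMP signalling, which holds HSCs in quiescence, 15 of 33 tested genes fell and 6 rose (median -0.24). The repressors Skil (-1.35) and Tgif1 (-1.05) fell. The co-receptor Tgfbr3 rose from 29.3, 28.3 and 26.5 to 85.5, 83.9 and 87.3 CPM (1.61 ± 0.05), and the BMP targets Id1 (0.67) and Id3 (0.53) rose, while Tgfb1 (-0.01) was not called. Matrix genes had 13 rises and 8 falls among 27 (median 0.19), the basement membrane collagens Col4a1 (0.88) and Col4a2 (0.87) rising and fibronectin Fn1 (-1.22) falling. GIMAP GTPases, small proteins of lymphocyte survival, had 2 falls among 8 (median -0.15), those of Gimap6 and Gimap9 (-0.78), and 1 rise, that of Gimap4, which lost its call without the second or the third library of either group (adjusted p up to 0.134).

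Chromatin regulators of the DNA methylation and Polycomb list had 16 falls and 8 rises among 37 (median -0.09). Kdm6b, an inducible demethylase of the repressive H3K27 mark, stood out with 1963, 1967 and 1976 CPM untreated and 655, 638 and 658 CPM after 5-FU (-1.60 ± 0.01, edgeR adjusted p = 2.33e-14). Tet2, a DNA demethylase often mutated in clonal haematopoiesis, fell by 0.84, Tet3 by 0.40 and the maintenance methyltransferase Dnmt1 by 0.23 on the log2 scale. The de novo methyltransferase Dnmt3b (0.38) and the histone methyltransferase gene Ezh1 (0.33) rose, while Dnmt3a (-0.05) and Bmi1 were not called.

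The wild-type response was then set against that of the libraries labelled Trim47-/-, which share no sample with it. The difference of the 2 responses passed an adjusted p of 0.05 in edgeR's interaction test for 8957 of 16319 genes (54.9%). On the NF-kB list, 36 of 41 members differed, with a median log2 fold change of -1.26 in wild type and -0.07 in the libraries labelled Trim47-/-. On the erythroid list 25 of 26 differed, with medians of 1.28 and 0.61, and on the neutrophil list 18 of 24, with medians of 0.69 and 1.28. Ribosome biogenesis genes differed in 34 of 36, with medians of -0.30 and 0.27.

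Single genes show the size of these differences, though Cd83, Nlrp3 and Lipg were chosen by their wild-type change, which the difference contains. Cd83 changed by -4.72 in wild type and by -1.57 in the libraries labelled Trim47-/- (log2 difference -3.14, adjusted p = 2.30e-12). Nlrp3 changed by -2.72 and 1.31, and Lipg by 5.01 and 3.89. Slamf1 changed by 3.11 and 0.99 (difference 2.12, adjusted p = 1.36e-06). For Cd48 the responses were 0.89 and 0.74, and a difference of 0.15 did not pass the test (adjusted p = 0.0512).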

How the data were processed

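Each library was made from poly(A)-selected RNA with a stranded paired-end kit and sequenced on a NovaSeq instrument, per the labels' protocols. Per the submitters' processing notes, HISAT2, StringTie, edgeR and CASAVA 1.8 were used with GRCm38, and the strand setting of the counting was not given in the sources used here. The authors deposited raw read counts per gene, used for every test, and FPKM values, used only to set levels beside each other per length.

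Counts were tested in edgeR 4.0.16 (R 4.3.3) with its quasi-likelihood test after TMM scaling and edgeR's default filter on low counts. One fit held all 12 libraries with a mean for each of 4 groups, and p-values were Benjamini-Hochberg adjusted over the 16319 genes kept. CPM values use the TMM-scaled library sizes. Counts of 14828152 to 15151589 per library set the precision. In counts drawn for the same comparison and tested on simulated data (15992 genes run), 30%, 54%, 80% and 100% of 50 genes each changed 1.25-, 1.5-, 2- and 4-fold were recovered, with 6 of 15792 unchanged genes called. Far fewer genes were changed there than the 8260 called in the data, which makes the adjusted p harder to pass. The recovered shares, above all those of small changes, are therefore not those of this comparison. RefSeq promoter windows of GRCm38.p6 were searched for motifs on both strands.

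The comparison and the 43 gene lists were chosen with earlier results of these data known. Genes named are the 12 rises and 12 falls of largest change (called, at least 10 CPM, groups not overlapping, without unnamed gene models and antigen receptor segments), the 4 members of smallest p of each list, the measured members of the surface marker, CDK inhibitor, fluoropyrimidine and p53 lists, and Trim47. Results of some genes are not reported here. Other list members named were chosen after their values were seen. DESeq2 1.42.0, other scalings and filters, a replicate block, stricter thresholds and refits without each library were the alternatives.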

Additional observations from a re-analysis of the deposited data

Results flagged for a closer look

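For 46 named genes listed here, the 5-FU response differed between wild type and the libraries labelled Trim47-/- in edgeR's interaction test. The threshold was an adjusted p under 0.05 over all genes. They are listed because the difference concerned a gene of largest change (19 of 24) or opposite called responses with at least a 2-fold difference (29 named genes). Of those 29, Trim47 is on none of the lists and is the gene named in the other genotype. Each value in brackets is the log2 response of wild type minus that of the libraries labelled Trim47-/-. Beside them, 54.9% of all genes tested differed in the same test, so a difference by itself does not set these genes apart. The genes of largest change were chosen by their wild-type response, which is also part of the difference. That choice favours a difference in the direction of the wild-type change, so 19 of 24 is not read as a result.

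Genes that fell in wild type and rose in the libraries labelled Trim47-/- were Acod1 (-4.90), Nlrp3 (-4.03), Thbs1 (-3.27), Pmaip1 (-3.08), Ly86 (-2.86) and Mpeg1 (-2.12). Further genes with this pair of directions were Csf1r (-1.90), Slc7a1 (-1.59), Mdm2 (-1.43), Trim25 (-1.36), Atp5l (-1.31) and Cd44 (-1.28). Orc1 (-1.26), Slc2a1 (-1.14), Lemd3 (-1.12), Uck2 (-1.07), Nfe2l2 (-1.05) and Heatr1 (-1.00) showed it too.

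Genes that rose in wild type and fell in the libraries labelled Trim47-/- were Rbl2 (1.09), Polk (1.16), Acvr1b (1.33), Trim47 (1.34), Rrm2b (1.38) and Gfi1 (1.41). The same pair of directions held for Col4a2 (1.45), Cdkn1c (1.51), Gimap4 (1.62), Dntt (1.63) and Esam (2.12). For Gimap4 the wild-type rise lost its call without the second or the third library of either group, as given above. It was also lost in the DESeq2 test (adjusted p = 0.115).

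Among the genes of largest rise in wild type, a difference was found for Selp (0.33), Col18a1 (0.45), Clca3a1 (0.72), Hbb-bs (0.92), Hba-a1 (0.95) and Slc4a1 (1.01). A difference was also found for Hbb-bt (1.03), Tjp1 (1.10), Lipg (1.12) and Podxl (1.22).

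Among the genes of largest fall in wild type, one was found for Cd83 (-3.14), Errfi1 (-2.86), Arl5b (-2.83), Ptafr (-2.78), Arl5c (-2.67) and Dusp8 (-2.11). It was also found for Egr4 (-0.96). The Arl5b difference passed narrowly (edgeR adjusted p = 0.0481), and the untreated wild-type libraries had 45.1, 185 and 45.96 CPM. Without the second of these, Arl5b lost its wild-type call, as given above.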

How the results depend on the processing

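Against 8260 genes called, separate fits called 8223 with DESeq2 size factors (8117 of them among the 8260 with the same sign), 7554 with the DESeq2 test (7217), 7960 without a filter on low counts (7494) and 7882 from the 6 wild-type libraries alone (7556). An adjusted p under 0.01 left 6304. Thresholds of size moved the counts: a test against a 1.5-fold change called 1602 genes (450 higher and 1152 lower), and a fold of at least 2 left 1619 (467 higher and 1152 lower). The share of calls that were higher was 49.8% and became 28.1% and 28.8% under those 2 thresholds. Refits without 1 library called 7522 to 7614 genes (3672 to 3752 higher and 3850 to 3887 lower), and the difference between genotypes was called for 8557 to 8661 genes against 8957. Same-numbered untreated and 5-FU libraries had correlations of -0.04, -0.06 and 0.08 of their deviations over 12402 genes, and different-numbered ones of -0.08 to 0.12. Counting noise is a large part of such deviations, so these values cannot tell whether the numbers pair the samples. Over all genes, the median chi-square per degree of freedom was 1.08 untreated and 1.15 after 5-FU, against 0.693 from noise alone. With the replicate number as a block, 8125 genes were called (4040 higher and 4085 lower), and the difference between genotypes for 8827. Of 267 named genes tested, 225 were called, and 16 lost the call without 1 or more of the libraries. Sign changes were counted only where a gene was called in the main fit or in the alternative, and numbered 0. Among 1290 list members and named genes, 703 of 841 called were called in all 6 refits without 1 library. What sequencing depth limits was not tested.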
